A study of Mus musculus with 2 samples.

Results

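*Gpr17* and 8 further genes of committed oligodendrocyte precursors, *Bmp4*, *Enpp6*, *Bcas1*, *Tcf7l2*, *Itpr2*, *Fyn*, *Tns3* and *Lims2*, were read in single cells of optic nerves with glioma. These 9 genes were taken by their symbols from the 32285 genes counted. The nerves came from *Nf1* flox/mut; GFAP-Cre mice (Nf1-OPG mice) on a C57BL/6 background at 12 weeks of age. In these mice, 1 *Nf1* allele is mutant in every cell and Cre driven by the GFAP promoter removes the other in glia, and low-grade gliomas form along the optic nerve. Each of the 2 libraries, C-ON and FMC_new, was described as a pool of 10 mice. The word control stands in the title of the first library without explanation. Both carry the same genotype, and no library of a nerve without glioma was analysed here. The question addressed was where the commitment genes are found among the glia of these nerves, and whether they are found together in the cells that carry glioma markers.

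Oligodendrocytes arise from dividing precursors that carry the growth factor receptor Pdgfra. On leaving this state, a precursor first becomes a committed precursor, then a newly formed oligodendrocyte, and only then a cell that makes myelin. *Gpr17*, which encodes a G protein-coupled receptor proposed to respond to uracil nucleotides and cysteinyl leukotrienes, is switched on in the committed state and off again before myelin is made. *Bmp4* encodes a secreted growth factor of the BMP family. *Enpp6* encodes a choline-specific phosphodiesterase known as a marker of newly formed oligodendrocytes, *Bcas1* a protein found in early myelinating cells, and *Tcf7l2* a TCF/LEF transcription factor of the Wnt pathway. *Itpr2* encodes an inositol trisphosphate receptor that releases calcium, *Fyn* a Src family kinase, and *Tns3* and *Lims2* (PINCH-2) adaptor proteins of integrin adhesions.

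Transcripts were counted as unique molecular identifiers (UMIs), 1 for each captured molecule. C-ON held 85101211 UMIs and 8834 kept cells with a median of 6810.5 UMIs, and FMC_new held 129113325 UMIs and 16818 kept cells with a median of 4676. Of the barcodes of kept cells, 188 were shared by both libraries. Of 37 clusters, 29 were named from marker lists in 16 classes, and 3390 cells (13.2%) in 8 clusters were left unnamed. FMC_new also held 973 pituitary endocrine-like cells, a class with 0 cells in C-ON. The tumor-like class was defined by 8 precursor markers such as *Pdgfra*, *Cspg4* and *Vcan*, all counted in both of its clusters, 9 and 18. These markers are those of normal oligodendrocyte precursors too, so glioma cells and normal precursors cannot be told apart here. The class held 214 cells in C-ON and 1356 in FMC_new, beside 5422 and 2712 oligodendrocyte-like, 20 and 214 astrocyte-like and 217 and 1719 microglia-like cells. None of the 9 genes was used to form or name the clusters. The libraries are 2 of 1 condition and cells are not replicates, so no test was made. Intervals are exact 95% intervals that cover counting error only, binomial (Clopper-Pearson) for shares of cells and Poisson for levels, which are the UMIs of a gene per 1000000 UMIs of a class (CPM). Shares of cells were also read after each cell had been thinned to 2000 UMIs, with shallower cells left out, so that classes and groups are compared at equal depth.

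The genes lie on 8 chromosomes of GRCm38. *Gpr17* (chr18:31942997-31949636, minus strand, 2 exons) sits inside *Lims2* (chr18:31922290-31958619, plus strand), and 188 of its 5195 exon bases are also exon bases of *Lims2*. The strand setting of the counting is not given in the sources used here, so reads in that overlap could have been given to either gene.

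The 7 other genes lie apart from each other. *Bmp4* lies at chr14:46383520-46390669 on the minus strand, *Enpp6* at chr8:46986887-47096762 on the plus strand and *Tcf7l2* at chr19:55741820-55933654 on the plus strand. *Bcas1* (chr2:170346991-170427845, minus strand) holds the antisense genes *Bcas1os1* and *Bcas1os2*. *Itpr2* (chr6:146108299-146502223, minus strand), *Fyn* (chr10:39368855-39565381, plus strand) and *Tns3* (chr11:8431652-8664535, minus strand) are long genes, and *Tns3* overlaps no other gene. On the same strand, *Ppnr* lies inside *Tcf7l2*, and *Gm44086* and *Gm15720* lie inside *Itpr2*. Genes on the opposite strand also overlap *Bmp4* (*Gm15217* and *Gm15222*), *Enpp6* (*Gm45600* and *4930579M01Rik*), *Itpr2* (*Gm44087*) and *Fyn* (*Gm6963*, *Gm16364* and *Gm16365*). Their reads cannot be set apart here either.

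RefSeq promoters on GRCm38.p6 were at hand for 6 of the 9 genes. Those of *Bmp4*, *Enpp6* and *Tcf7l2* are shown because these genes formed the pairs found together most often in tumor-like cells for their shares, as described later. Each line is the 250 bases before the RefSeq start, which for *Tcf7l2* differs from the gene start above, 5′ to 3′ on the strand of the gene, from chr14:46390670-46390919, chr8:46986637-46986886 and chr19:55741560-55741809. Capitals mark matches, on either strand, to 3 motifs of factor families of this lineage: the E box CANNTG of basic helix-loop-helix factors, the HMG box ACAATG or ACAAAG of Sox factors, and the core TCAAAG of TCF/LEF factors.
Bmp4: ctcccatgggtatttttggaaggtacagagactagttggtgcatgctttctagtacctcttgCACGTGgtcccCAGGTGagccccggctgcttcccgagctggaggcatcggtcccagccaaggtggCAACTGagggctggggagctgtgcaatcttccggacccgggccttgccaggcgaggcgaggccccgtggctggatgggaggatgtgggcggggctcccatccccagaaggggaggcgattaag
Enpp6: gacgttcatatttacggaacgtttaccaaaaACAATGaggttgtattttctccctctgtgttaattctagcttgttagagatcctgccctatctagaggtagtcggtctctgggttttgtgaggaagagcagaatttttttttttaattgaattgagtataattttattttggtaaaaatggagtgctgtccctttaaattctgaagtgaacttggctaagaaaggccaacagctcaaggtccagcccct
Tcf7l2: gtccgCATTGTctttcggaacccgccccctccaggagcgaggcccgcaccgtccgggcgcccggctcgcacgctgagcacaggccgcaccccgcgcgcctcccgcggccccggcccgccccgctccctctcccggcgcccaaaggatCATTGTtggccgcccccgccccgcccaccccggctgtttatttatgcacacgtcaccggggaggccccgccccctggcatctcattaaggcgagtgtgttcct
The *Bmp4* sequence held 3 E boxes, the *Enpp6* sequence 1 HMG box and the *Tcf7l2* sequence 2 HMG boxes. Of 32851 promoter sequences of the same length, 66.2% held an E box, 25.2% an HMG box and 13.8% a TCF core. None of the 3 sequences held a TCF core. The matches are a description of these letters, not of sites in use.

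*Gpr17* and *Bmp4* were almost limited to tumor-like cells among the glia, whereas *Enpp6* was a gene of oligodendrocyte-like cells and the 6 other genes were shared more widely. *Gpr17* reached 202.8 CPM (178.5 to 229.4) in C-ON and 217.1 CPM (206.7 to 227.9) in FMC_new in the tumor-like class. In oligodendrocyte-like cells its level was 0.536 and 0.566 CPM, from 25 of 5422 and 7 of 2712 cells, and no astrocyte-like cell held it (0 of 20 and 0 of 214). At 2000 UMIs a cell it was found in 31.0% and 27.9% of tumor-like cells, against 0.131% and 0.0777% in the T cell-like class, a lineage without the gene.

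*Bmp4*, the ligand, was rare but had the same pattern. In the tumor-like class its level was 26.6 CPM (18.3 to 37.3) in C-ON and 22.9 CPM (19.6 to 26.6) in FMC_new, found in 18 of 214 and 92 of 1356 cells. In oligodendrocyte-like cells no UMI was found in 5422 cells of C-ON, and 5 cells of FMC_new held it, at 0.257 CPM. The tumor-like level was thus at least 413-fold higher in C-ON, taken against 3 UMIs in the library, and 89.1-fold higher in FMC_new. With cells classed by their own markers, the log2 ratio fell from 7.58 to 3.63 as the mean of the libraries. Tumor-like cells were not its main source in the nerve, since fibroblast-like cells reached 134.9 CPM (108.6 to 165.6) and 121.5 CPM (108.1 to 136.1).

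*Enpp6*, the enzyme of newly formed oligodendrocytes, ran the other way. Oligodendrocyte-like cells held 352.4 CPM (347.0 to 357.8) in C-ON and 289.1 CPM (281.6 to 296.7) in FMC_new, against 131.2 CPM (111.8 to 152.9) and 77.9 CPM (71.7 to 84.5) in tumor-like cells. The oligodendrocyte-like level was therefore 2.69-fold and 3.71-fold higher. At 2000 UMIs a cell, *Enpp6* was found in 43.7% and 36.4% of oligodendrocyte-like cells and in 14% and 4.49% of tumor-like cells. T cell-like cells, of a lineage without the gene, held it in 3.28% and 0.544%, a background that was higher in C-ON. The log2 ratio of tumor-like to oligodendrocyte-like levels, as the mean of the libraries, was -1.66, and it was -4.50 for the larger tumor-like cluster alone and -5.34 when each cell was classed by its own count of markers instead of by clusters.

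*Bcas1* was found in a large part of both lineages. Its level was 720.2 CPM (673.8 to 768.9) and 633.9 CPM (616.0 to 652.1) in tumor-like cells and 480.3 and 398.2 CPM in oligodendrocyte-like cells, a 1.5-fold and 1.59-fold difference. At equal depth the shares lay close together, with 56.5% and 57.8% of tumor-like cells and 59.2% and 53.3% of oligodendrocyte-like cells. *Bcas1* UMIs were also found in 17.0% and 18.6% of T cell-like cells, 18.2% and 18.5% of microglia-like cells and, in FMC_new, 20.2% of the astrocyte-like class. Shares near this background are not read as expression, and reads of its antisense genes cannot be set apart.

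**Figure D1:**
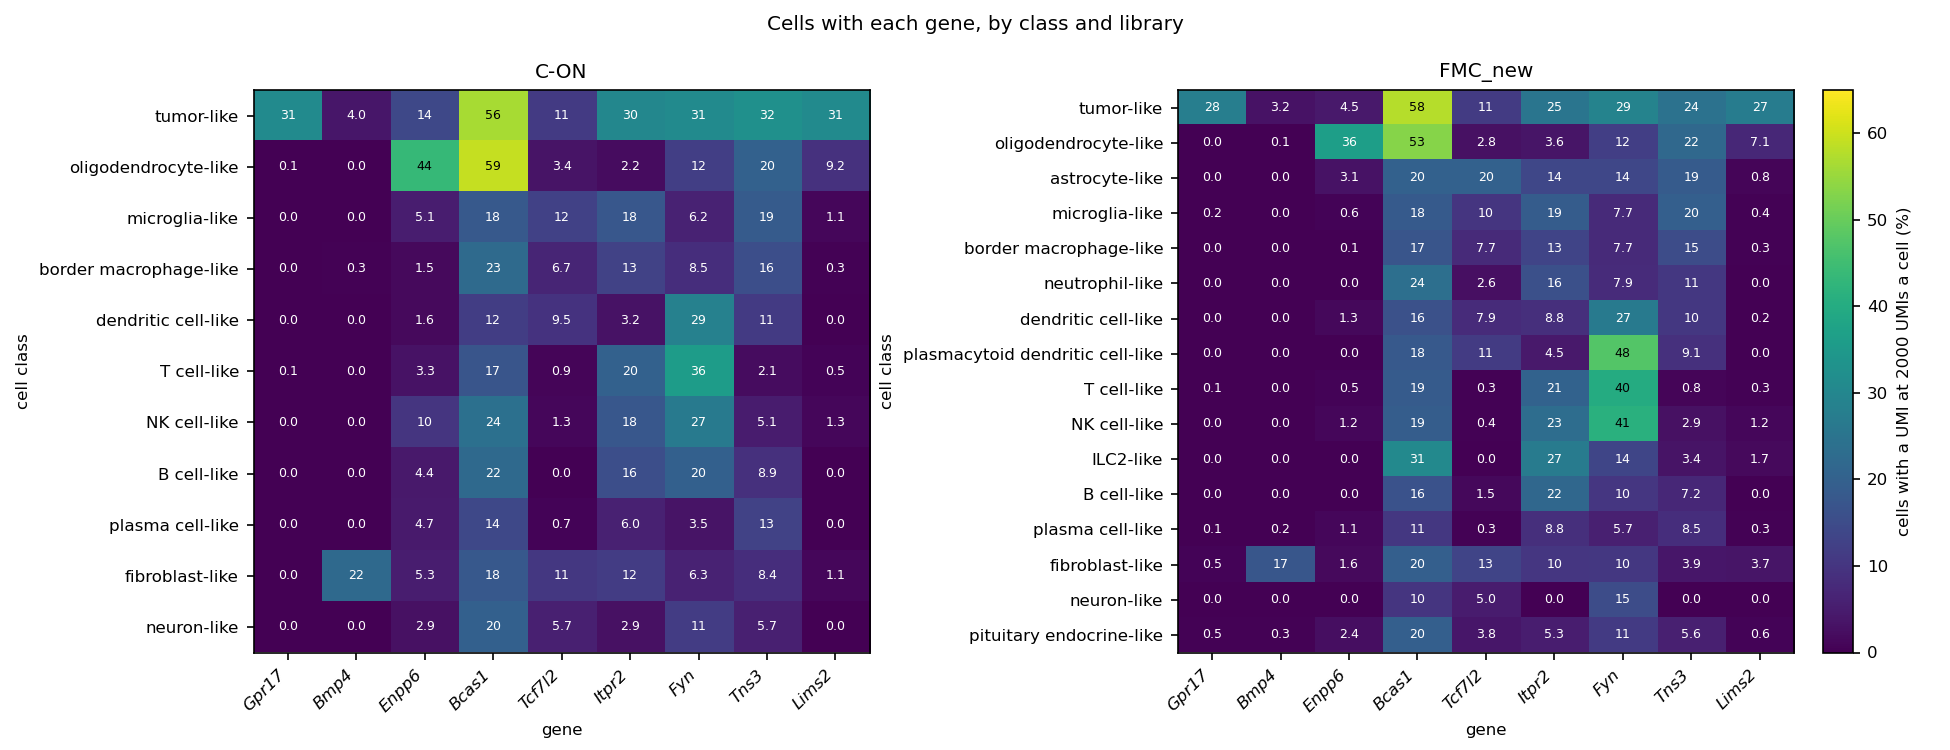
Share of cells with at least 1 UMI of each gene (columns) in each class (rows) after thinning to 2000 UMIs a cell, for C-ON (left) and FMC_new (right), with classes of at least 20 cells. *Gpr17* stood at 31.0% and 27.9% in tumor-like cells and at 0.522% or less in every other class, while *Bmp4* was highest in fibroblast-like cells, with 22.1% and 17.5%.

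Of the transcription factor and signaling genes, *Tcf7l2* was not particular to tumor-like cells. Its level there was 119.9 CPM (101.4 to 140.8) and 79.5 CPM (73.2 to 86.1), against 15.9 and 16.7 CPM in oligodendrocyte-like cells, and was 7.54-fold and 4.76-fold higher. Astrocyte-like cells held more, with 139.3 CPM (115.4 to 166.7) in FMC_new and 239.2 CPM (136.7 to 388.4) in the 20 cells of C-ON, where the intervals of the classes touch.

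*Itpr2*, the calcium channel gene, stood at 222.9 CPM (197.4 to 250.7) and 161.0 CPM (152.0 to 170.3) in tumor-like cells. Oligodendrocyte-like cells held 11.2 and 17.9 CPM, which made the tumor-like level 19.9-fold and 8.97-fold higher. Immune cells shared the gene: type 2 innate lymphoid (ILC2)-like and natural killer (NK) cell-like cells of FMC_new reached 184.4 CPM (138.6 to 240.7) and 183.0 CPM (157.4 to 211.7), and both intervals hold the tumor-like level of that library.

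*Fyn* stood at 387.0 CPM (353.2 to 423.2) and 260.9 CPM (249.5 to 272.8) in tumor-like cells and at 61.6 and 69.5 CPM in oligodendrocyte-like cells, a 6.28-fold and 3.75-fold difference. T cell-like cells, in which this kinase acts downstream of the T cell receptor, held 234.4 and 297.9 CPM. The order of these classes differed between the libraries, with tumor-like cells above T cell-like cells in C-ON and below them in FMC_new.

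The adhesion adaptors differed from each other. *Tns3* reached 361.3 CPM (328.6 to 396.3) in the tumor-like class of C-ON but 177.5 CPM (168.1 to 187.3) in that of FMC_new. Oligodendrocyte-like cells held 116.4 and 122.2 CPM, so that the fold was 3.10 and 1.45. *Lims2* reached 196.3 CPM (172.5 to 222.6) and 168.0 CPM (158.9 to 177.6), against 44.0 and 30.8 CPM, a 4.46-fold and 5.46-fold difference. *Lims2* was nearly absent from astrocyte-like cells of FMC_new, at 3.51 CPM from 2 of 214 cells, and from microglia-like cells, at 7.09 and 1.66 CPM.

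**Figure D2:**
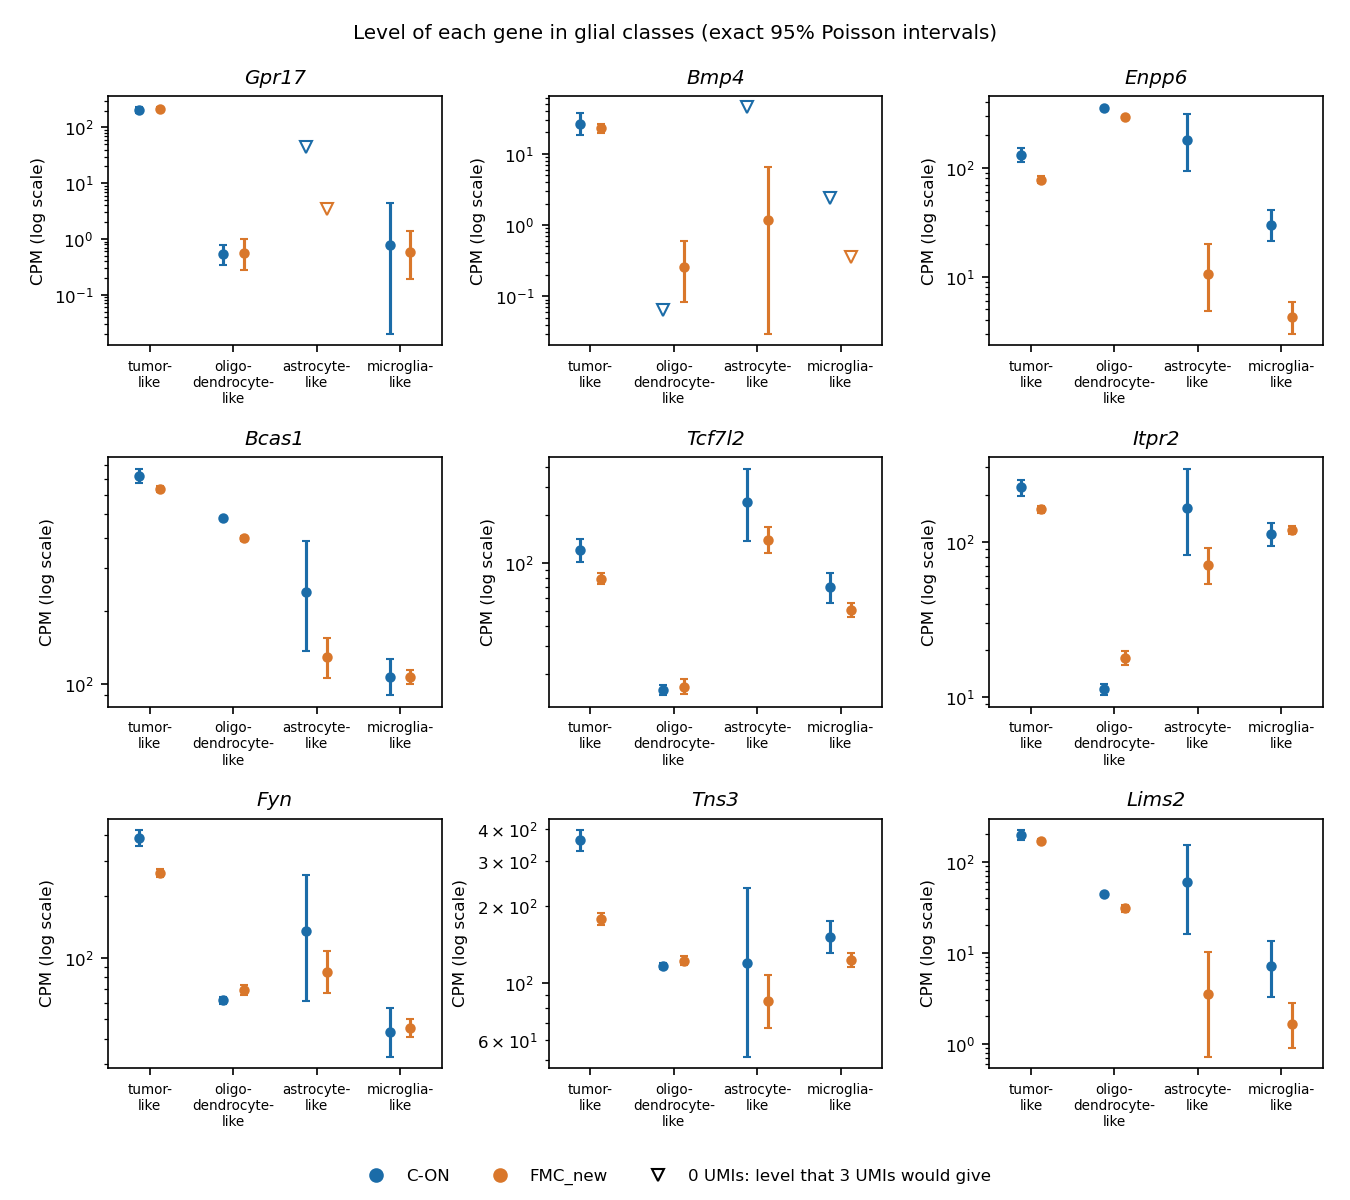
Level of each gene in 4 glial classes in CPM on a log axis whose range differs by panel, with exact 95% Poisson intervals, for C-ON (blue) and FMC_new (orange). Open triangles mark classes with 0 UMIs, drawn at the level 3 UMIs would give. *Gpr17*, *Bcas1*, *Tns3* and *Lims2* were highest in tumor-like cells in both libraries, *Enpp6* in oligodendrocyte-like and *Tcf7l2* in astrocyte-like cells.

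Counted together, 5 of the 9 genes were at least 4-fold higher in tumor-like than in oligodendrocyte-like cells in both libraries, against 14.0% of all 15316 genes with at least 10 UMIs in each library. They were *Gpr17*, *Bmp4*, *Tcf7l2*, *Itpr2* and *Lims2*. None was 4-fold lower (2.76% of all genes). The median log2 ratio of the 9 genes was 2.65 in C-ON and 2.25 in FMC_new, against 0.39 and 0.37 over all genes. Oligodendrocyte-like clusters 19 and 29 also held markers of T cells and of microglia. Without them *Fyn* joined, at 6.4-fold and 4.2-fold, and the count was 6. Against astrocyte-like cells, only *Gpr17* of the 9 was 4-fold higher in both libraries (1.15% of all genes) and none was lower (1.82%), with 20 astrocyte-like cells in C-ON to compare with. Against microglia-like cells, 6 were, namely *Gpr17*, *Bmp4*, *Enpp6*, *Bcas1*, *Fyn* and *Lims2* (16.5% of all genes), and none was lower (6.27%). Between oligodendrocyte-like and astrocyte-like cells, *Tcf7l2* was the only one of 8 genes compared to be 4-fold lower in oligodendrocyte-like cells (7.43% of all genes), and none was higher (0.474%).

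Over the 16 classes, with both libraries summed, tumor-like cells ranked first for *Gpr17*, *Bcas1*, *Tns3* and *Lims2*, second for *Bmp4*, *Enpp6*, *Tcf7l2* and *Itpr2*, and below 3 immune classes for *Fyn*. The order was not the same in each library: in C-ON alone tumor-like cells ranked first for *Itpr2* and *Fyn*, and astrocyte-like cells lay above them for *Enpp6*, at 179.4 CPM (92.7 to 313.3) from 20 cells. For *Itpr2* the first place was held by ILC2-like cells at 176.7 CPM (136.6 to 224.8) and the tumor-like level was 169.8 CPM (161.2 to 178.6), so these neighbours did not differ beyond counting error. The same held for *Fyn*, at 278.9 CPM (267.9 to 290.1) in tumor-like, 279.3 CPM (252.4 to 308.3) in NK cell-like and 282.2 CPM (273.8 to 290.8) in T cell-like cells. Across the 29 class values of single libraries, the log2 levels of *Lims2* and *Bcas1* were closest to that of *Gpr17* among the 8 other genes, with a Pearson r of 0.641 and 0.639. The closest of all genes were *Gm33027*, *S100a2*, *Tmem132e*, *Elfn1* and *1110015O18Rik*, with r from 0.986 to 0.987. These are descriptions over classes that share libraries, and only 2 of the 29 values are of tumor-like cells.

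The pathways around these genes were read from lists, against the 14.0% of all genes that were 4-fold higher and the 2.76% that were 4-fold lower. In the tumor-like against oligodendrocyte-like comparison, all 9 precursor genes were at least 4-fold higher, most of them being markers that named the class. Of 11 other genes of committed and newly formed oligodendrocytes compared, 5 were higher (*Neu4*, *Sox4*, *Sox11*, *Tmem163* and *Ust*) and 1 lower. *Neu4*, a sialidase gene, stood at 426.5 and 397.5 CPM against 0.236 and 0.411 CPM. *Gpr37*, a receptor gene of later oligodendrocytes, ran the other way, with 86.1 and 35.4 CPM in tumor-like against 843.5 and 811.1 CPM in oligodendrocyte-like cells.

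Among the lineage transcription factors, *Olig2*, *Sox5* and *Sox6* were at least 4-fold higher in tumor-like cells and *Myrf* and *Nkx6-2* at least 4-fold lower. *Myrf*, which drives myelin genes, stood at 56.3 and 37.0 CPM in tumor-like against 310.1 and 328.0 CPM in oligodendrocyte-like cells. Of 11 myelin genes, 10 were lower in tumor-like cells, with *Mbp*, the gene of myelin basic protein, the exception at a log2 ratio of -1.21 and -1.41.

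Around *Bmp4*, 3 of 14 BMP pathway genes compared were higher in tumor-like cells and 1 lower, beside 14.0% and 2.76% of all genes, so that the number higher is near the share of all genes. *Bmpr1b*, a type I receptor gene, stood at 19.3 and 33.6 CPM against 0.343 and 0.206 CPM. *Id2*, a target gene of BMP signaling, stood at 144.0 and 246.7 CPM against 4.11 and 24.7 CPM, and *Id3* was higher as well. *Smad7*, an inhibitor of the pathway, was lower, with 45.1 and 43.3 CPM against 338.9 and 348.6 CPM.

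Around *Gpr17*, the cysteinyl leukotriene genes were low in tumor-like cells. *Alox5ap*, which helps to make leukotrienes, stood at 33.8 and 52.7 CPM, and *Cysltr1*, a receptor gene, at 1.61 and 4.93 CPM. Against oligodendrocyte-like cells 2 of 5 were higher (*Alox5* and *Alox5ap*), whereas against microglia-like cells 3 of 4 compared were at least 4-fold lower (*Alox5ap*, *Ltc4s* and *Cysltr1*). Of 7 TCF/LEF and beta-catenin genes compared, *Tcf7l1*, a relative of *Tcf7l2*, was higher with 41.8 and 20.9 CPM against 0.943 and 0.874 CPM, and so was the Wnt inhibitor gene *Apcdd1*.

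Among 12 relatives or partners of the members compared, *Src* and *Parva* were higher in tumor-like cells, a share near the 14.0% of all genes, and *Enpp2* and *Enpp4* lower (2.76%). *Itpr1*, *Lims1*, *Ilk*, *Tns1* and *Tns2* were neither. *Src*, the kinase closest to *Fyn*, stood at 45.9 and 45.9 CPM against 5.68 and 6.84 CPM. Of 5 cell cycle genes compared, *Mki67*, *Top2a* and *Birc5* were higher, from low levels of 6.44 and 16.6 CPM for *Mki67*.

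Most cells that held *Gpr17* were tumor-like, but many tumor-like cells held none at full depth, since it was found in 103 of 214 in C-ON and 564 of 1356 in FMC_new. Of the 758 kept cells with a UMI, 667 (88.0%) were tumor-like, 103 of 132 in C-ON and 564 of 626 in FMC_new. In tumor-like cells without *Gpr17*, 107 of 111 and 690 of 792 carried at least 3 of the 8 tumor markers, and with it 100 of 103 and 546 of 564 did. The 32 oligodendrocyte-like cells with *Gpr17* mostly held 1 UMI of it (30 cells), 3 of them held at least 3 tumor markers, and their median of 10146.5 UMIs lay above the 7753.5 of their class. All 26 *Gpr17* cells of unnamed clusters were in FMC_new, and 16 of them held at least 3 tumor markers.

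The 2 tumor-like clusters differed more in the levels of *Enpp6* and *Bmp4* than in that of *Gpr17*. Cluster 9, with 181 and 857 cells, was led by *C1ql1*, *Pdgfra* and *Cspg5*, and cluster 18, with 33 and 499 cells, by *Gpr17*, *Slc1a1*, *Neu4* and *Tmem108*. *Gpr17* stood at 203.0 and 225.5 CPM in cluster 9 and at 201.7 and 194.3 CPM in cluster 18. *Enpp6* stood at 64.1 and 3.09 CPM in cluster 9 against 429.7 and 282.9 CPM in cluster 18, and *Bmp4* at 15.8 and 11.8 against 74.5 and 53.3 CPM. At equal depth the share of cells with *Gpr17* was 31.2% in cluster 9 and 30% in cluster 18 of C-ON, but 30.4% (27.3 to 33.7) and 20% (15.4 to 25.2) in FMC_new, with intervals apart. *Bmp4* was found in 2.94% and 2.27% of cluster 9 against 10% and 6.18% of cluster 18 at equal depth, whereas at full depth its shares were close, at 8.29% and 6.30% against 9.09% and 7.62%. The equal-depth share of cluster 18 in C-ON rests on only 30 cells. For *Tcf7l2* the order turned between the libraries, with 129.1 CPM in cluster 9 and 78.9 CPM in cluster 18 of C-ON, but 46.5 and 169.9 CPM in FMC_new.

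Cluster 18 also held more RNA of other cell types. At equal depth in FMC_new, the microglial gene *C1qa* was found in 40.7% of its cells against 4.89% in cluster 9, *Mog* of myelin in 25.8% against 2.39% and the T cell gene *Cd3e* in 14.9% against 4.06%, while *Pdgfra* was found in 33.1% against 77.9%. Its median depth in FMC_new was 2187 UMIs against 6230 in cluster 9, and 33.5% of its cells were among the 5% with the highest doublet scores, against 6.65% in cluster 9. The scores are those of Scrublet, which had not worked as a doublet caller here, as described under the processing. The part of mixed droplets in the difference between these clusters was not tested.

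Within tumor-like cells, most of the other commitment genes were found somewhat more often with *Gpr17* than without it, by less than 1.5 times except for *Bmp4*. Of the thinned tumor-like cells, 62 of 200 in C-ON and 310 of 1113 in FMC_new held *Gpr17*, and 14 and 243 shallower cells were left out. In FMC_new, 838 of 857 cells of cluster 9 but only 275 of 499 of cluster 18 were deep enough. The pairs and splits described below rest on the same cells. None of the 6 other genes found in at least 5% of these cells reached a ratio of shares of 1.5 in both libraries (1.15% of 6154 genes did), and none was that much rarer (0.731%). Their median ratio was 1.17 and 1.25, against 1.05 and 1.05 over all genes. *Lims2* came closest, with 38.7% of cells with *Gpr17* against 27.5% without in C-ON and 32.9% against 25% in FMC_new, ratios of 1.41 and 1.31. *Neu4*, the sialidase gene named above, had ratios of 1.33 and 1.37. Since part of *Gpr17* overlaps *Lims2*, shared reads cannot be told apart from a shared presence.

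*Bcas1* had ratios of 1.08 and 1.2, *Tcf7l2* 1.27 and 1.19, *Itpr2* 1.2 and 1.27, and *Fyn* 1.14 and 1.23. *Tns3* had ratios of 0.85 and 1.37, on either side of 1. *Bmp4* was too rare for the count but had the largest ratios, with 6.45% against 2.90% in C-ON and 6.45% against 1.99% in FMC_new, from 4 and 20 cells with both genes. The C-ON intervals for *Bmp4* overlap (1.79 to 15.7 against 0.795 to 7.26). *Enpp6* had ratios of 0.74 and 1.22 and thus no common direction.

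**Figure D3:**
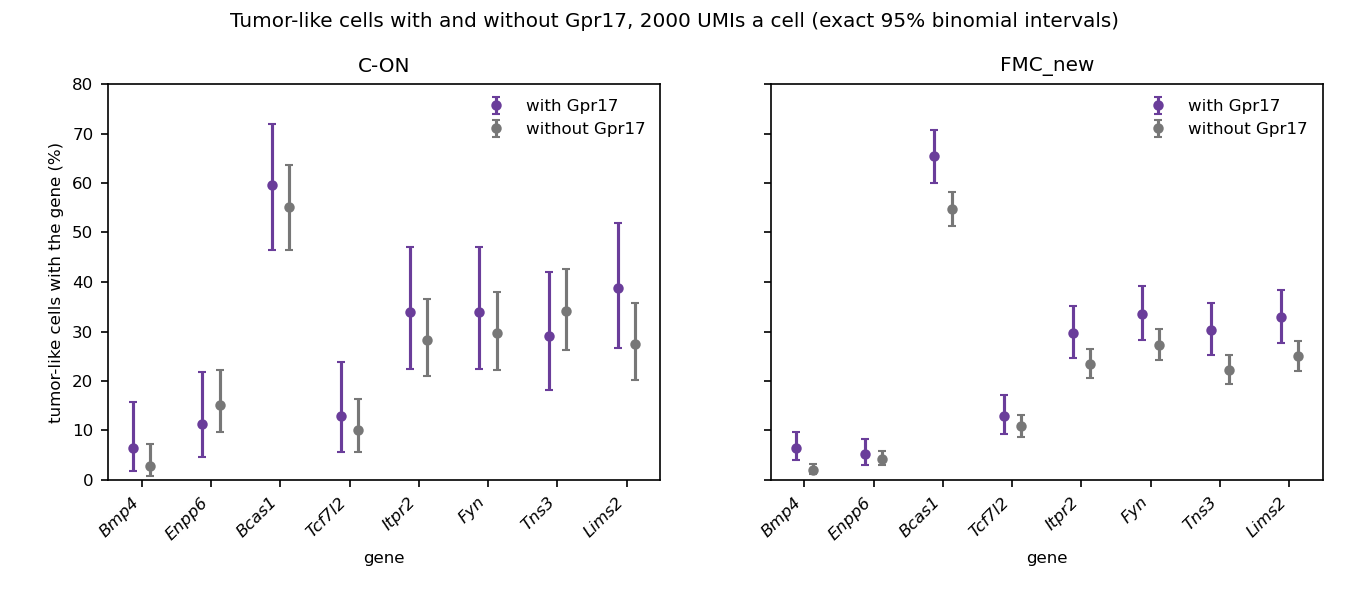
Share of tumor-like cells with each of 8 genes among cells with *Gpr17* (purple) and without it (grey), after thinning to 2000 UMIs a cell, with exact 95% binomial intervals, for C-ON (left) and FMC_new (right). The points of *Bcas1* lie at 59.7% and 55.1% in C-ON, and those of *Lims2* are the farthest apart in that library, at 38.7% and 27.5%.

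Among genes found in at least 5% of tumor-like cells, no gene of the 10 lists reached the ratio of 1.5 in both libraries, the 10 myelin genes compared having a median ratio of 1.03 and 0.93 and the 9 precursor genes 1.07 and 1.10. Under the same minimum, genes were also ordered by the ratio of their levels in CPM with over without *Gpr17*, not by shares. By the smaller of the 2 libraries, the highest were outside the lists. *Col11a2*, a collagen gene, was found in 25.8% of cells with *Gpr17* against 4.35% without in C-ON and in 11.9% against 4.36% in FMC_new, and was followed by *Slitrk1*, *Kank1*, *Rab33a* and *Timp4*. At the other end of the order by level, by the larger of the 2 libraries, stood *Ighg2c*, *Klk6*, *Car2*, *Sbno2* and *Mzb1*. Markers of plasma cells, read as a list, stood at 1137 and 1124 CPM in cells with *Gpr17* and at 3163 and 2359 CPM in those without. Those of microglia stood at 371 and 563 CPM against 315 and 1218 CPM, and those of pituitary endocrine cells at 16.1 and 4819 CPM against 29.0 and 5986 CPM. The part of this foreign RNA in the co-detection was not tested.

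The 9 genes were also read in pairs. For each of the 36 pairs, the number of tumor-like cells with both genes was divided by the number that their shares alone would give. The ratio was above 1 in both libraries for 27 pairs and below 1 in both for 1 pair, *Fyn* with *Lims2* (0.83 and 0.94). The highest were *Bmp4* with *Enpp6*, at 4.46 and 6.18 from 5 and 10 cells, and *Enpp6* with *Tcf7l2*, at 2.60 and 4.56 from 8 and 26 cells. *Bmp4* with *Tcf7l2* followed with 2.27 and 2.43 from 2 and 10 cells, and *Bmp4* with *Fyn* with 2.02 and 2.20 from 5 and 23 cells.

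*Gpr17* itself had its highest ratio with *Bmp4* (1.61 and 1.99) and ratios from 0.81 to 1.25 with the 7 others. These ratios differed by cluster. With *Tcf7l2* the ratio was 1.01 and 1.05 in cluster 9 but 2.22 and 1.52 in cluster 18, from 2 and 14 cells with both genes. With *Lims2* it was 1.18 and 1.09 in cluster 9 but 2 and 1.81 in cluster 18, from 3 and 17 cells. In cluster 18 only *Tns3* had a ratio with *Gpr17* below 1, at 0.91 in C-ON. *Lims2* stood apart from the rest in C-ON, at 0.58 with *Enpp6* and 0.59 with *Tcf7l2*, whereas in FMC_new these ratios were 1.10 and 1.19. The ratio of *Enpp6* with *Tcf7l2* was above 1 within each cluster, at 2.80 and 5.17 in cluster 9 and 2.50 and 3.12 in cluster 18. In cluster 9 it rests on 5 and 2 cells with both genes. That of *Bmp4* with *Fyn* was 1.31 and 1.31 in cluster 9 and 3 and 2.97 in cluster 18.

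**Figure D4:**
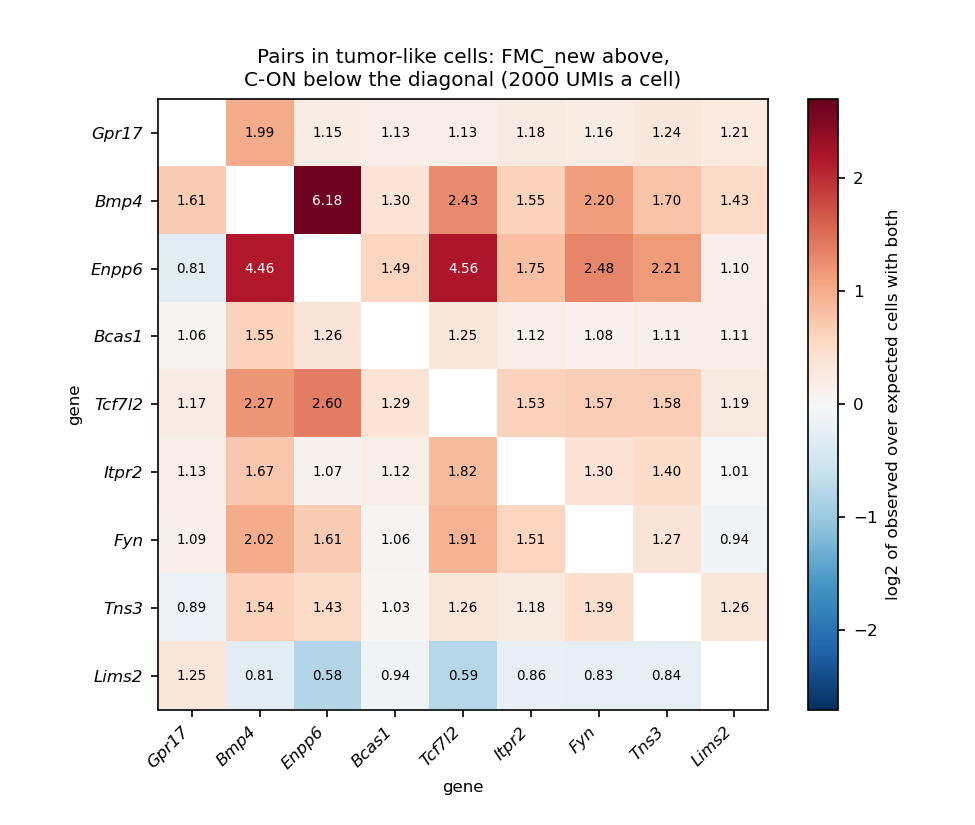
Observed over expected number of tumor-like cells with both genes of a pair at 2000 UMIs a cell, with FMC_new above and C-ON below the diagonal. Numbers give the ratio and colours its log2. The darkest cells are *Bmp4* with *Enpp6* (6.18 and 4.46) and *Enpp6* with *Tcf7l2* (4.56 and 2.60), and the row of *Lims2* in C-ON is mostly below 1.

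A tumor-like cell held a mean of 2.41 of the 9 genes in C-ON and 2.11 in FMC_new at 2000 UMIs, against 1.5 and 1.37 in oligodendrocyte-like and 0.802 and 0.813 in T cell-like cells. At least 3 of the genes were found in 40.5% and 33.7% of tumor-like cells and in 14% and 11.6% of oligodendrocyte-like cells. The most found in 1 tumor-like cell was 7 in C-ON and 9 in FMC_new, against 5 in oligodendrocyte-like cells of either library. Cells with at least 5 of the genes were 14 of 170 and 38 of 838 in cluster 9 and 6 of 30 and 35 of 275 in cluster 18. Of these cells, 0 of 20 in C-ON and 3 of 73 in FMC_new were among those with the highest doublet scores. Since Scrublet had not worked, whether these cells were mixed droplets was not tested.

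Tumor-like cells were also split by each of the other members, with counts over the members found in at least 5% of cells. With *Bmp4* (8 and 36 cells), 5 of 7 were found at least 1.5 times as often in both libraries, namely *Gpr17*, *Tcf7l2*, *Itpr2*, *Fyn* and *Tns3* (5.83% of all genes). With *Tcf7l2* (22 and 127 cells), *Itpr2* and *Fyn* were, of 6 (3.14%). With *Bcas1* (0.959%), *Itpr2* (2.23%) or *Fyn* (1.09%), *Tcf7l2* alone of 6 was, and with *Tns3* (1.69%) or *Lims2* (1.35%) none of 6. *Bmp4* was too rare to be counted, but its ratio was at least 1.5 in both libraries in the splits by *Gpr17*, *Enpp6*, *Bcas1*, *Tcf7l2*, *Itpr2*, *Fyn* and *Tns3*.

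Because *Enpp6* headed the pairs, the split by it is described further, a comparison chosen after these values had been seen. *Enpp6* was found in 28 of 200 thinned tumor-like cells of C-ON and 50 of 1113 of FMC_new. Of the 7 members compared, *Tcf7l2*, *Fyn* and *Tns3* were found at least 1.5 times as often in cells with *Enpp6* in both libraries, against 7.23% of 6155 genes. *Tcf7l2* was found in 28.6% (13.2 to 48.7) of cells with *Enpp6* against 8.14% (4.52 to 13.3) without in C-ON, and in 52% (37.4 to 66.3) against 9.5% (7.81 to 11.4) in FMC_new. *Fyn* was found in 50% against 27.9% and in 72% against 27%.

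*Tns3* was found in 46.4% of cells with *Enpp6* against 30.2% without and in 54.0% against 23.0%. *Bmp4*, too rare for the count, was found in 17.9% against 1.74% and in 20% against 2.45%. *Gpr17* was found in 25% against 32% and in 32% against 27.7%, and *Lims2* in 17.9% against 33.1% and in 30% against 27.1%, with no common direction for either. Cells with *Enpp6* therefore differed from the other tumor-like cells in *Tcf7l2*, *Fyn*, *Tns3* and *Bmp4* and not in a common way in *Gpr17* and *Lims2*.

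The same cells held fewer precursor and more myelin transcripts. Of the 9 precursor genes, 5 were found at least 1.5 times less often with *Enpp6* in both libraries (17.7% of all genes), namely *Pdgfra*, *Cspg4*, *Cspg5*, *Ptprz1* and *C1ql1*. *Pdgfra* was found in 35.7% against 77.3% and in 22.0% against 69.0%. *Tnr*, which encodes the matrix protein tenascin-R, was the only one of the 9 not lower in share, with 92.9% against 79.7% and 74.0% against 72.8%. Of the 10 myelin genes compared, 6 were found more often with *Enpp6* (*Mag*, *Mog*, *Ermn*, *Mal*, *Cldn11* and *Ugt8a*). *Mog* was found in 64.3% against 9.88% and in 64.0% against 5.55%. The list of 8 dendritic cell markers also summed higher with *Enpp6*, at 607 and 570 against 212 and 196 CPM. In cells with *Enpp6*, only 1 of these 8 genes was found in C-ON and 4 in FMC_new, so the list sum is not read as dendritic cell RNA. Markers of plasma cells (4357 and 1960 against 2238 and 2018 CPM) and microglia (250 and 1680 against 346 and 1005 CPM) had no common direction. Those of astrocytes were lower, at 286 and 500 against 1110 and 1072 CPM. The part of oligodendrocyte RNA or other foreign RNA in this split was not tested.

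Of the transcription factors, *Myrf*, *Nkx6-2* and *Zfp488* were found more often and *Sox5* less often. *Myrf* was found in 42.9% against 5.81% and in 30% against 4.05%. Of the other committed and newly formed oligodendrocyte genes, *Sirt2*, *Rnd2*, *Gpr37* and *Ust* were found more often and *Sox11* less often. *Smad7* was found in 17.9% against 5.23% and in 22.0% against 5.83%.

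**Figure D5:**
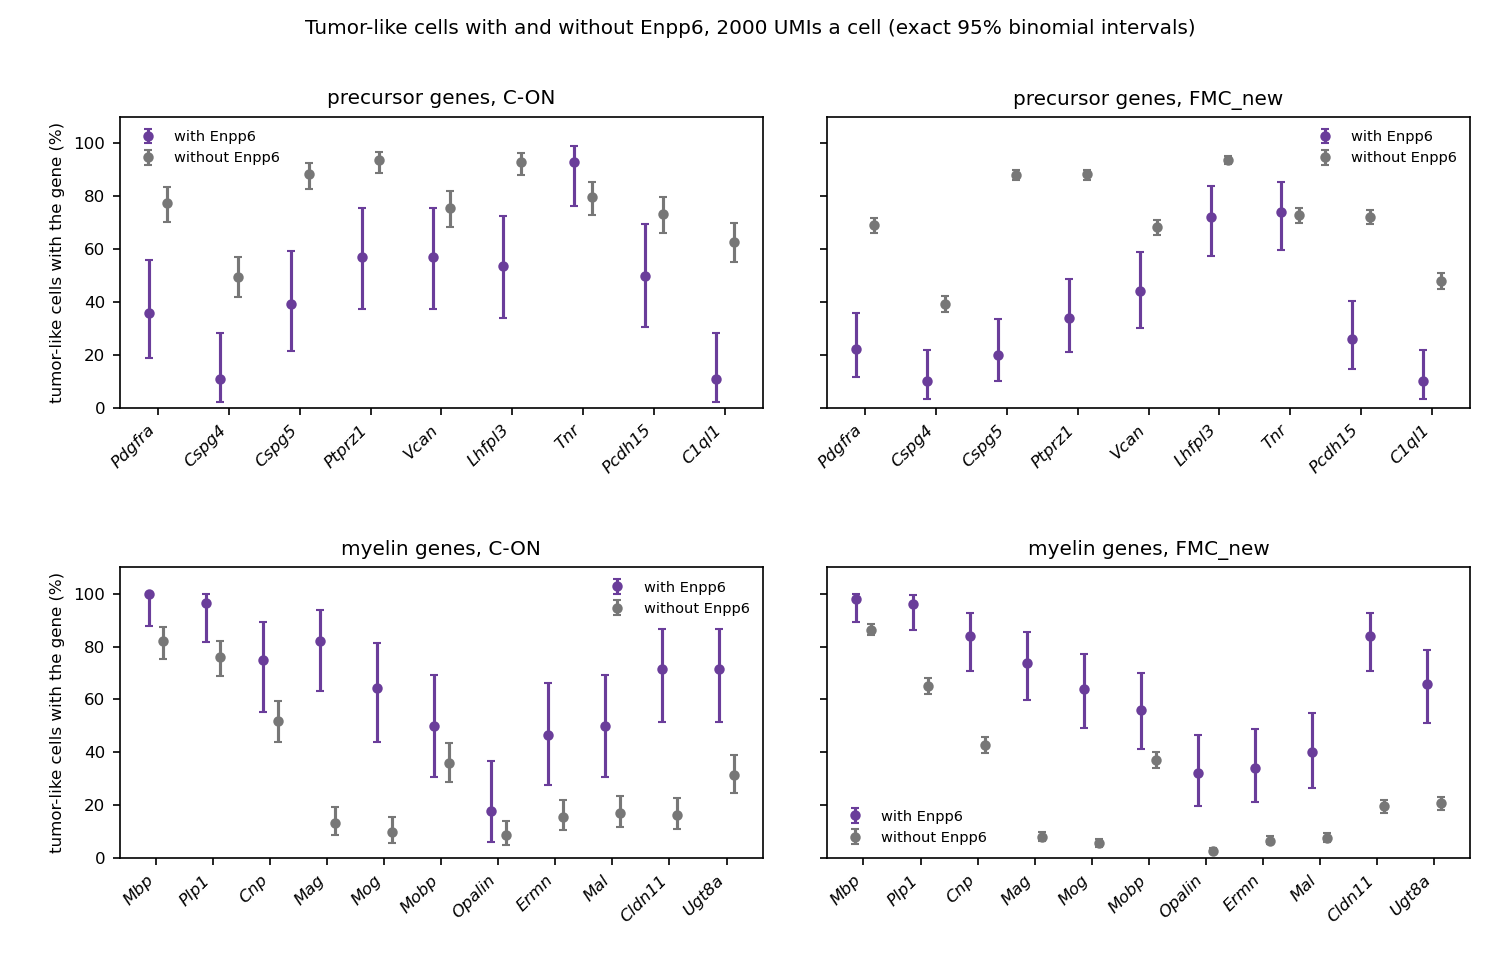
Share of tumor-like cells with each precursor gene (top) and myelin gene (bottom) among cells with *Enpp6* (purple) and without it (grey) at 2000 UMIs a cell, with exact 95% binomial intervals. *Pdgfra* stands at 35.7% against 77.3% in C-ON and 22.0% against 69.0% in FMC_new, and *Mog* at 64.3% against 9.88% and 64.0% against 5.55%.

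Oligodendrocyte-like cells at the same depth differed from the *Enpp6* cells of the tumor-like class in the commitment genes. All of these oligodendrocyte-like cells were taken, not only the 43.7% and 36.4% that held *Enpp6*. They held *Tcf7l2* in 3.39% and 2.82%, *Fyn* in 11.9% and 12.0%, *Bmp4* in 0% and 0.0894% and *Pdgfra* in 0.0564% and 0.224% of cells. *Mog* was found in 97.1% and 92.4% of them, and *Myrf* in 44.8% and 44.1%. *Tcf7l2*, *Fyn* and *Bmp4* were thus found more often in the *Enpp6* cells than in either the other tumor-like cells or the oligodendrocyte-like cells as a whole. The split itself was chosen from pairs that include *Tcf7l2* and *Bmp4*.

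The *Enpp6* cells were unevenly spread over clusters and libraries. In C-ON 16 lay in cluster 9 and 12 in cluster 18, and in FMC_new 4 lay in cluster 9 and 46 in cluster 18. Within cluster 9 of C-ON, *Tcf7l2* was found in 31.2% of them against 9.09% of other cells, *Mog* in 62.5% against 8.44% and *Pdgfra* in 43.8% against 82.5%, while *Gpr17* was found in 6.25% against 33.8%. *Fyn* differed less there, with 37.5% against 29.9%. The 4 *Enpp6* cells of cluster 9 in FMC_new held *Tcf7l2* in 50%, *Mog* in 25%, and *Mag* and *Myrf* in 0%. Within cluster 18 of FMC_new, *Tcf7l2* was found in 52.2% against 9.61% and *Mog* in 67.4% against 17.5%. *Gpr17* was found more often with *Enpp6* in cluster 18 of both libraries, unlike in cluster 9 of C-ON. Its shares there were 50% against 16.7% in C-ON and 30.4% against 17.9% in FMC_new, from 6 and 14 cells with both genes. The highest doublet scores were held by 25% and 18% of the *Enpp6* cells, against 6.98% and 12.4% of the others. Without the cells of highest score, *Tcf7l2* was found in 38.1% against 8.75% and 63.4% against 10.1%, and *Mog* in 52.4% against 9.38% and 58.5% against 5.05%. Because Scrublet had not worked, these values do not show whether mixed droplets remain, and this was not tested.

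Among the oligodendrocyte-like clusters, *Enpp6* varied by about a factor of 2 at equal depth. It was found in 60.8% and 54.7% of cluster 1, led by *Nkx2-9*, and in 29.1% and 23.3% of cluster 0, led by *Ptgds*. *Lims2* had the opposite order, with 6.71% and 6.31% in cluster 1 and 12.8% and 12.2% in cluster 0. *Bcas1*, *Fyn* and *Tns3* were highest in cluster 11, led by *Grm3*, with 68.6% and 67.3% for *Bcas1*, 17.5% and 19.9% for *Fyn* and 29.7% and 31.1% for *Tns3*, among the clusters without markers of another class. *Gpr17* and *Bmp4* were found in 0.197% of cells or fewer in each of these clusters.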

How the data were processed

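Single cells of optic nerves were profiled by droplet-based 5′ RNA sequencing in 2 libraries. The deposited files hold UMI counts per gene and barcode, which the authors made with Cell Ranger (version 7.2.0 per the file headers and the submitters' processing notes, which also list Seurat 5 and 5.2.1; the study's methods name another Cell Ranger version) on the mm10 (GRCm38) reference. The counts are not normalized. Whether intron reads entered and which strand setting was used are not given in the sources used here.

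Cells were kept by the study's limits of 500 to 5000 genes, 500 to 20000 UMIs and at most 5% mitochondrial UMIs, which left 8834 of 10845 barcodes in C-ON and 16818 of 21341 in FMC_new. Counts were log-normalized, 2000 variable genes without the 9 members were chosen, and the libraries were integrated by canonical correlation analysis with 30 components and clustered at resolution 0.8 (R 4.3.3, Seurat 5.3.0). A cluster was named where at least 3 markers of a list were found in at least 20% of its cells at 2 times the mean level of the clusters or more and its 10 leading genes did not go against the name. The handling of leading genes was refined after they had been seen. The members and lists were chosen with earlier results of these data known. Named genes were the members, the genes of the lists and the 5 genes whose levels were most like that of *Gpr17* over classes. Added to these were the genes at either end of the ratio of CPM in tumor-like cells with over without *Gpr17*. 1 gene of the lists is not reported here.

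Sums, shares and ratios were computed in Python 3.11.15 (numpy 2.4.6, pandas 2.3.3, scipy 1.17.1) and checked on simulated data. Both libraries belong to 1 group and no test was made, so each library was read alone and a gene was counted where both passed. A level counted as different at 4-fold, over genes with at least 10 UMIs in each library. A class with 0 UMIs of a gene was set to the floor of 3 UMIs in the library, and the gene was counted where that bound passed. A co-detection counted at a ratio of 1.5 between shares of cells at 2000 UMIs, over genes found in at least 5% of tumor-like cells. Likeness over classes was the Pearson r of log2(CPM + 1). Intervals are exact 95% intervals for counting error. Scrublet (scanpy 1.11.5) called 1 of 25652 cells a doublet and so had not worked, and leaving out the 5% of cells with the highest scores in each library was added after seeing the data, as was leaving out mixed oligodendrocyte-like clusters and reading the tumor-like clusters apart. Other alternatives were SCTransform, other resolutions and depths, cells classed by their own markers and each library alone. Gene positions are those of GENCODE vM21, and of 2 RefSeq promoters of *Tcf7l2* the first was used.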

Additional observations from a re-analysis of the deposited data

How the results depend on the processing

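*Gpr17* was found in 42.5% of tumor-like cells at full depth, in 51.1% in the largest tumor-like cluster alone, 28.3% at 2000 UMIs a cell, 16.6% at 1000 UMIs, 23.0% where at least 2 UMIs were required, and 41.6% to 48.1% when either library was left out. Tumor-like cells made up 88.0% of all cells with *Gpr17*, 69.9% when the largest tumor-like cluster alone stood for the class, and 78.0% to 90.1% when either library was left out. The count of members at least 4-fold higher in tumor-like than in oligodendrocyte-like cells was 5 and lay between 4 and 6 under the alternatives run. *Tcf7l2* was not among them in the largest tumor-like cluster alone or with cells classed by their own markers. The count found more often with *Gpr17* was 0, but 2 at 1000 UMIs (*Fyn* and *Lims2*), 1 without thinning (*Lims2*), 1 where at least 2 *Gpr17* UMIs defined the cells (*Lims2*) and 1 without the minimum share (*Bmp4*). The ratio of *Bmp4* with *Fyn* was 2.11 as the mean of the libraries, 1.31 in the larger and 2.99 in the smaller cluster. For no member did the direction between tumor-like and oligodendrocyte-like levels, as the mean of the libraries, turn in an alternative where it was computed. Pairs did turn by cluster: *Fyn* with *Lims2* had ratios of 0.75 and 0.83 in cluster 9. In cluster 18 they were 1.8 and 1.55, from 3 and 23 cells with both genes. At 2000 UMIs few tumor-like cells held *Bmp4* (8 and 36) or *Enpp6* (28 and 50), which limits the precision of values that rest on them. No paired analysis was possible because both libraries belong to 1 group.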
